A study of Rattus norvegicus with 20 samples.

Results

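The constitutive proteasome genes described here are 34 genes that encode the standard 20S core particle (14 genes), the 19S regulatory cap (17 genes) and the assembly chaperones of the cap's base (3 genes, counted with the cap, 20 in all). They were taken by gene symbol from a table of 16748 genes, and all 34 were above the lowest value of that table in at least 1 library. The RNA came from the fat layer of rat milk, which holds cytoplasm shed by milk-secreting epithelial cells together with some whole cells. All dams were wild-type Sprague-Dawley rats, injected on postnatal day 10 of their litters with saline or with lipolysaccharide (LPS), a bacterial cell wall component that triggers innate immunity. Milk was taken under light isoflurane anaesthesia after oxytocin, at postnatal day 10 (P10), 2 h after the injection, or at postnatal day 11 (P11), 24 h after it. The 4 groups were P10 saline, P10 LPS, P11 saline and P11 LPS, with 5 libraries each. The dams' own ages are not used here. Per the labels the libraries are biological replicates. The libraries of each agent came from 7 dams, and 3 dams of each agent have a library of both days, so that libraries of the 2 days are not fully independent.

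The proteasome is the protease that degrades most proteins tagged with ubiquitin. Its core is a barrel of stacked rings, in which outer α rings gate the entry and inner β rings carry the cutting sites. The cap binds ubiquitin chains, removes them and threads the unfolded protein into the core: its base holds a ring of ATPases, and its lid holds the deubiquitinase and the scaffold around it. In a lactating gland these cells make protein at a very high rate, and the proteasome clears misfolded and regulatory proteins. Immune cells, and cells exposed to interferon, exchange the catalytic β subunits for inducible ones.

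Levels are given as normalised counts, calculated here from the deposited log2-scale values, and differences as log2 differences on the deposited scale with the standard error (SE) from limma. A gene was called changed at a Benjamini-Hochberg adjusted p under 0.05 over 14022 genes. Estimated depth was 22300000 to 93000000 reads per library, and even the least abundant of the 34 genes, Psmd10, had at least 99.7 estimated reads in every library. No transcript lengths were used, so levels are not compared between genes.

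P11 saline library 2 stood apart from its group. Across all genes it correlated at 0.976 to 0.986 with the P10 libraries and at 0.874 to 0.932 with the other P11 libraries. Values for P11 saline are those of all 5 libraries unless they are stated to be without it. The make-up of the milk also differed between days. Summed counts of 9 neutrophil markers were 45.8 to 195.7 in P10 saline (7 of 9 markers above the lowest value) and 63.9 to 673.5 in P10 LPS (6 of 9), with Mpo and Elane at 0 at P10 and Camp also at 0 in P10 LPS. P11 counts were 8762 to 28400 in the 4 other saline libraries and 5346 to 16330 in LPS (8 of 9 in each), against 123.4 in library 2, with Elane at 0 in saline and Mpo in LPS. Summed macrophage and monocyte markers (9 of 10 detected at P10, without Cd163, and 10 of 10 at P11) were 362.7 to 1653 at P10, 2818 to 5761 at P11 and 739.8 in library 2. The 6 general leukocyte markers summed to 348.7 to 1440 at P10, 1109 to 12950 in the other P11 libraries and 998.8 in library 2. The 6 myoepithelial markers summed to 926.6 to 1946 at P10, 7735 to 12870 in the other P11 libraries and 2268 in library 2. The 12 luminal and milk protein genes, all detected in each group, summed to 25660000 to 61260000 at P10, to 4162000 to 8107000 at P11 and to 29570000 in library 2. These 12 genes did not all fall. From P10 to P11, 4 were called higher and 5 lower in saline dams, and 4 higher and 6 lower in LPS dams. Of all genes, 46.8% and 52.9% were called in either direction. Lymphocyte markers summed to at most 174.0 and fibroblast and endothelial markers to at most 134.4 in any library, while red cell markers ranged from 101.2 to 13720, both extremes at P10. In such bulk samples, fewer cells of a type and less RNA per cell cannot be told apart, and the part of these cell types in the results below was not tested.

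LPS against saline addresses whether an immune challenge of the dam altered proteasome transcripts in her milk. No proteasome gene was called at either time. At P10, 2 h after the injection, limma called 0 of the 34 genes, against 0% of all genes tested, and at an unadjusted p under 0.05 it found 0 of the 34 and 622 of all genes. The log2 differences lay between -0.19 and 0.14, with a median of -0.0044, and the 95% confidence intervals of the 34 genes together reached from -0.62 to 0.49. P11 saline library 2 enters the estimate of spread behind these intervals. Without it, the SE of Psmd5 at P10 was 0.115 instead of 0.206. At an unadjusted p under 0.05, limma then found 0 of the 34 and 1043 of all genes at P10, and again called 0. At P11, 24 h after the injection, 0 of the 34 were called, against 0.0856% of all genes, and 0 of the 34 had an unadjusted p under 0.05, as 1004 of all genes did. Differences at P11 lay between -0.30 and 0.17, and their intervals reached from -0.73 to 0.50. Without library 2 they lay between -0.11 and 0.23, and again 0 genes were called, against 0.0642% of all genes. Saline and LPS libraries did not overlap for 0 of the 34 genes at P10, against 1.01% of all genes, and for 0 at P11, against 0.649%; without library 2 this held at P11 for 1, against 2.19%, the lid gene Psmd12, named after its values were seen. The core and cap medians were 0.02 and -0.04 at P10 and -0.02 and 0.03 at P11 (0.03 and 0.01 without library 2). These intervals leave room for changes of modest size, so the absence of calls does not show equal levels.

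**Figure D1:**
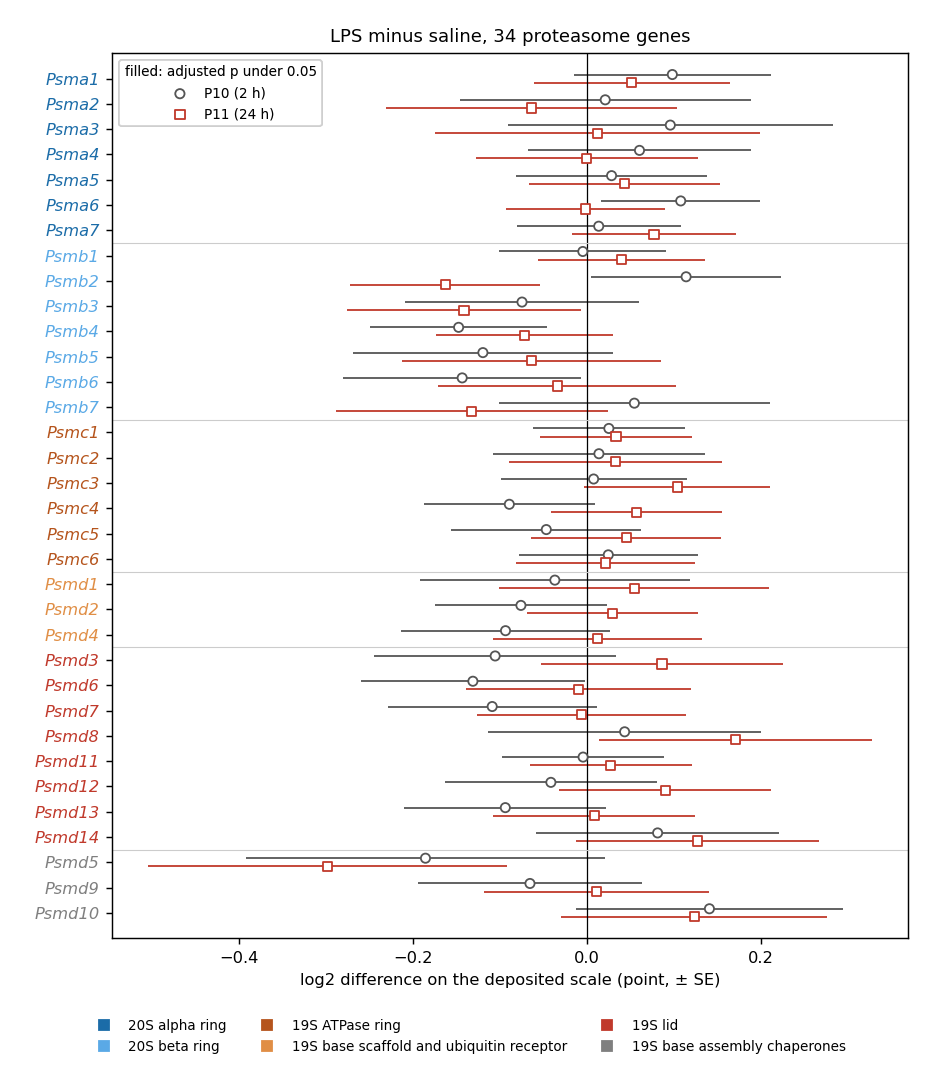
LPS minus saline for the 34 proteasome genes, ordered by part of the particle, at P10 (circles) and at P11 (squares, all 5 saline libraries); points are log2 differences on the deposited scale and bars are ± 1 SE. All symbols are open because no adjusted p was under 0.05, and the differences run from -0.30 to 0.17.

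The genes with the smallest p at P10 were Psmb4, a β-ring subunit without a cutting site, and Psma6, an α-ring subunit. Psmb4 counts were 3174, 3907, 3318, 3796 and 3932 in P10 saline and 2810, 3386, 2970, 3697 and 3483 in P10 LPS. The ranges overlapped widely, and the log2 difference was -0.15 ± 0.10 (SE; adjusted p = 1). Psma6 counts were 2833, 3487, 3393, 3413 and 3638 in P10 saline and 3639, 3198, 3864, 3533 and 3845 in P10 LPS. Only saline library 1 lay below all LPS libraries, and the difference was 0.11 ± 0.09 (adjusted p = 1).

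At P11 the smallest p belonged to Psmb2, a β-ring subunit, and to Psmd5, a chaperone of base assembly. Psmb2 counts were 2444, 2775, 2185, 2039 and 2396 in P11 saline and 1782, 2375, 2159, 2157 and 2044 in P11 LPS. The groups overlapped, and the difference was -0.16 ± 0.11 (adjusted p = 0.807). At P10 the Psmb2 counts were 1913, 2255, 2265, 2113 and 2431 in saline and 2070, 2136, 2497, 2924 and 2342 in LPS, also overlapping. The difference of its LPS effects, P11 minus P10, was -0.28 ± 0.15, which had the smallest p of the 34 for that test but an adjusted p of 0.968. For Psmd5 at P11 the difference was -0.30 ± 0.21 (adjusted p = 0.813), and it was -0.04 without library 2 (adjusted p = 0.957). The next smallest p for the difference of effects was that of Psmc4, an ATPase of the base. Its counts were 2322, 3367, 2866, 2708 and 3186 in P10 saline and 2758, 2520, 2552, 3048 and 2603 in P10 LPS. In P11 milk they were 3218, 3100, 2639, 3047 and 2883 in saline and 2840, 3144, 3386, 3242 and 2891 in LPS. The groups overlapped at both times, and the difference of effects was 0.15 ± 0.14 (adjusted p = 0.968). In all, 0 of the 34 genes were called for a difference between the LPS effects of the 2 days, against 0.0357% of all genes, and 0 of the 34 and 635 of all genes had an unadjusted p under 0.05.

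Between P10 and P11, proteasome genes moved in both kinds of dam. In saline dams 10 of the 20 cap genes rose, 6 of them in the lid, while 10 of the 14 core genes were not called. The catalytic core subunits Psmb5 and Psmb7 and the chaperone Psmd5 fell. In saline dams 15 of the 34 genes were called (44.1%), against 46.8% of all genes, 12 of them higher (25.6% of all genes were higher) and 3 lower (21.2%). In LPS dams 18 were called (52.9%), against 52.9% of all genes, 14 higher (30.9%) and 4 lower (22%). The share of called genes was thus near that of all genes, and a count over the 34 says little about them; their median absolute difference was 0.24 against 0.40 for all genes in saline dams and 0.30 against 0.44 in LPS dams. Without P11 saline library 2, 19 genes were called in saline dams, against 56.7% of all genes, 13 higher (31.9%) and 6 lower (24.8%); the 4 gained were Psmd2 (0.24, adjusted p = 0.0457), Psma2 (-0.53, adjusted p = 0.0017), Psma3 (-0.43, adjusted p = 0.0453) and Psmc3 (-0.28, adjusted p = 0.0281). Of the genes described below, the saline differences without library 2 were 1.01 for Psmd14, 0.95 for Psmd8, 0.76 for Psmd1, 0.71 for Psmd3, 0.77 for Psma5 and 0.30 for Psmd4. They were -0.69 for Psmb5, -0.75 for Psmb7, -0.23 for Psmb6 and -1.36 for Psmd5, and of these 10 genes all but Psmb6 (adjusted p = 0.154) were called. The other genes that rose in saline dams had 0.40 for Psmd7, 0.51 for Psmd11, 0.60 for Psmd13, 0.27 for Psmc1, 0.47 for Psmc6 and 0.39 for Psma1 without it, and all 6 were called. In LPS dams, whose differences do not use library 2 but share its estimate of spread, leaving it out added Psmb4 (0.24, adjusted p = 0.0439). Day of lactation, time since injection and an earlier milking of some dams cannot be told apart in this comparison.

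The 2 comparisons between days share no library, though they share some of their design. Of the 34 genes, 15 were called in the same direction in saline and in LPS dams, 0 in opposite directions and 16 in neither, and 30 had the same sign. Across the 34 genes the 2 sets of differences correlated at Pearson's r = 0.979 and Spearman's rho = 0.966, a description over genes that are not independent. Of all genes, 46.8% were called in saline dams and 52.9% in LPS dams. The agreement between the 2 kinds of dam is not given over all genes, so it is not shown to be particular to the proteasome genes. The genes called in both were Psma1, Psma5, Psmc1, Psmc6, Psmd1, Psmd3, Psmd4, Psmd7, Psmd8, Psmd11, Psmd13 and Psmd14, which rose, and Psmb5, Psmb7 and Psmd5, which fell. Groups of the 2 days did not overlap for 14 genes in LPS dams, against 41.7% of all genes, and for 6 in saline dams, against 12.4%; without library 2 this was 16 in saline dams, against 45.1%.

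**Figure D2:**
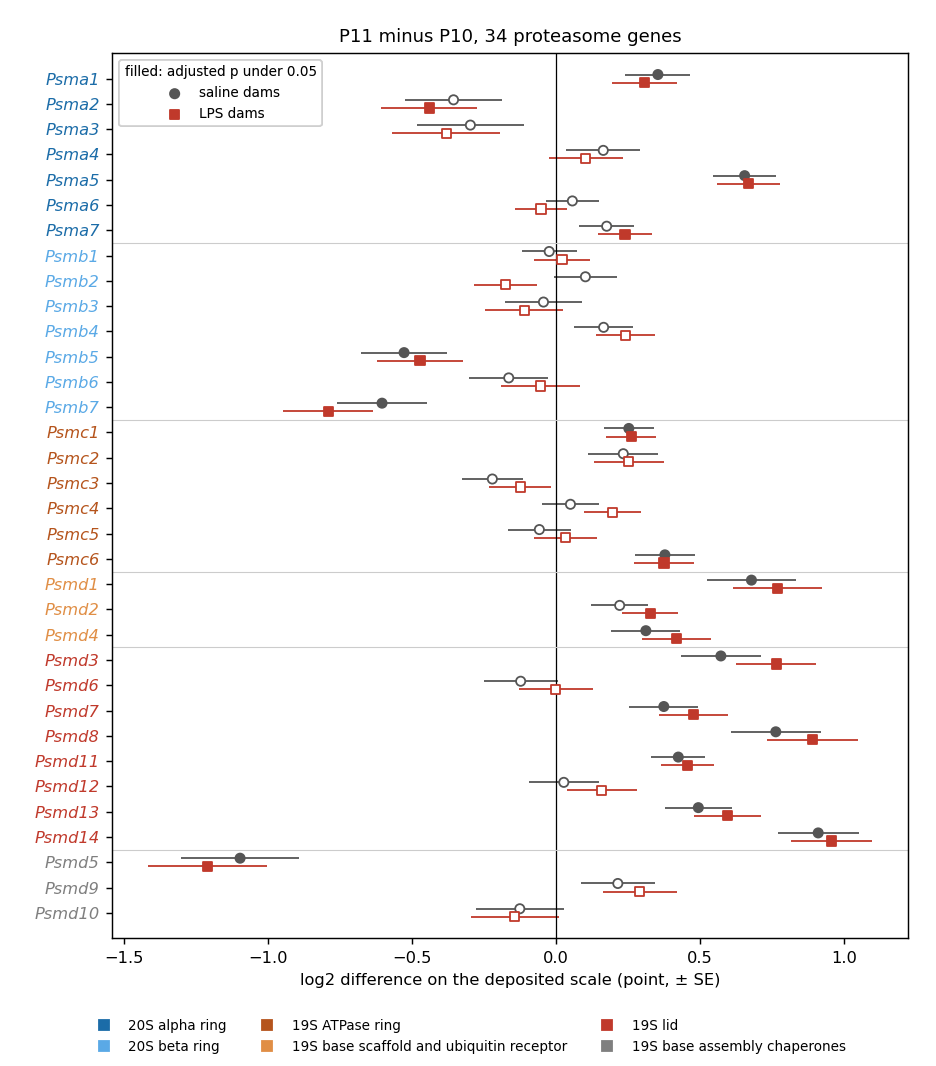
P11 minus P10 for the 34 proteasome genes, ordered by part, in saline dams (circles) and LPS dams (squares); points are log2 differences on the deposited scale, bars are ± 1 SE, and filled symbols have an adjusted p under 0.05. Of the 8 lid genes 6 lie to the right and are filled in both kinds of dam, and Psmb5, Psmb7 and Psmd5 lie to the left. The other core genes lie on both sides of 0, from -0.36 to 0.65 in saline dams and from -0.44 to 0.67 in LPS dams.

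Promoters are shown for 6 of the genes whose transcripts moved between days, as the 250 bases before the start in the RefSeq promoter table (build GRCr8), because motifs of known regulators of proteasome genes can be read in them. Of the 34 genes 30 were in that table; Psma7, Psmd6, Psmd12 and Psmd14 were not. Psma5, Psmd1 and Psmd8 rose, and Psmb5, Psmb7 and Psmd5 fell. Capitals mark, on either strand, TGACNNNGC (the element bound by NFE2L1 and NFE2L2 with small MAF proteins, which drives proteasome genes when the proteasome is short), CCAAT (bound by NF-Y) and GGGCGG (bound by SP1). The windows lie at chr2:198584255-198584504 (plus strand), chr9:94157721-94157970 (plus strand), chr1:93608690-93608939 (minus strand), chr15:32047380-32047629 (minus strand), chr3:42827471-42827720 (minus strand) and chr3:38548491-38548740 (minus strand).
Psma5: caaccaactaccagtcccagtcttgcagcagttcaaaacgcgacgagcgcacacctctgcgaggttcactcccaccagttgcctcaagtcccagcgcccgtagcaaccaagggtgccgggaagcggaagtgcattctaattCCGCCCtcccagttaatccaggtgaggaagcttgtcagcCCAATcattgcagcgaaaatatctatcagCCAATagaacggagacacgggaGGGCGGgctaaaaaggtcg
Psmd1: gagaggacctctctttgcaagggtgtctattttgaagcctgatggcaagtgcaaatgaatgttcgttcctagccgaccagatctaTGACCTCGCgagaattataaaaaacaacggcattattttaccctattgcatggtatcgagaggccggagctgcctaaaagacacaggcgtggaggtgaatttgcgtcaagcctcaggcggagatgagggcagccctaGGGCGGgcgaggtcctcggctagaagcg
Psmd8: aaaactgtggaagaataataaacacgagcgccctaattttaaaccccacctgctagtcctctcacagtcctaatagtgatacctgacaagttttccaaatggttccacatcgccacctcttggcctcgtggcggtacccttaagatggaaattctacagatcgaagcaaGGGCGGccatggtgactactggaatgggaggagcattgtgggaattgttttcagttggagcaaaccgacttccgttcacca
Psmb5: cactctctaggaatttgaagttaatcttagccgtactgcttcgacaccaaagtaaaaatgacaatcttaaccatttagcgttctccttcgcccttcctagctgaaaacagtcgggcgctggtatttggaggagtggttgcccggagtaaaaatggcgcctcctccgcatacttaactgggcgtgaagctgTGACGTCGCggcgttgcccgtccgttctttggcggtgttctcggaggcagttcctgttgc
Psmb7: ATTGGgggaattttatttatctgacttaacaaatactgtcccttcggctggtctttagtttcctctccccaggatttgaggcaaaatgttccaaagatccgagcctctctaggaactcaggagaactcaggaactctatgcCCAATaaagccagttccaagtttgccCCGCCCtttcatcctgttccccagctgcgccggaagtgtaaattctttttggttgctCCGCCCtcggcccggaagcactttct
Psmd5: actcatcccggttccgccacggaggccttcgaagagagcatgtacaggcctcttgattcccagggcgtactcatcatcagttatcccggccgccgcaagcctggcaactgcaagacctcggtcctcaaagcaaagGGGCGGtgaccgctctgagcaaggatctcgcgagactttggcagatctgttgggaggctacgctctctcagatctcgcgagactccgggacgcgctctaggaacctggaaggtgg

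No motif match overlapped another in these 6 windows. TGACNNNGC was in the promoters of Psmd1, which rose, and of Psmb5, which fell. Over all members it was in 6 of 30 promoters (20%), those of Psma3, Psmb2, Psmb5, Psmb6, Psmd1 and Psmd9, and in 10.1% of the 33469 promoters of the same length. CCAAT was in 16 of 30 (53.3%), Psma5 and Psmb7 among them, and in 34% of all promoters. GGGCGG was in 21 of 30 (70%), Psma5, Psmb7, Psmd1, Psmd5 and Psmd8 among them, and in 30.5% of all. By part, TGACNNNGC was in 4 of 13 core promoters (30.8%) and in 2 of 17 cap promoters (11.8%). CCAAT was in 9 of 13 (69.2%) and 7 of 17 (41.2%), and GGGCGG in 11 of 13 (84.6%) and 10 of 17 (58.8%). A match describes letters in this window and does not show binding.

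The set holds 8 lid genes, without the small lid subunit Sem1, which was called lower in both kinds of dam. Of the 8, 6 rose in saline dams and in LPS dams, Psmd3, Psmd7, Psmd8, Psmd11, Psmd13 and Psmd14. That is 75% higher, against 25.6% of all genes called higher in saline dams and 30.9% in LPS dams. In either direction, 46.8% and 52.9% of all genes were called. The list medians were 0.46 and 0.54, against 0.05 and 0.10 over all genes. The lid scaffolds Psmd6 (-0.12 in saline dams and -0.0012 in LPS dams) and Psmd12 (0.03 and 0.16) were not called. With each library centred on its median, 3 lid genes were called higher in saline dams and 4 in LPS dams, without a share of all genes under that scaling to set beside them. Psmd14 is the metalloprotease that cuts ubiquitin chains from substrates as they enter the core. Its counts were 816, 1323, 1265, 933 and 1142 in P10 saline and 1362, 947, 1283, 1203 and 994 in P10 LPS. At P11 they were 2392, 1582, 2025, 2158 and 2484 in saline and 2233, 2354, 2282, 2131 and 2549 in LPS. Every P11 library, library 2 included, lay above every P10 library. The group means were 1096 ± 216 and 2128 ± 356 in saline dams and 1158 ± 181 and 2310 ± 156 in LPS dams (SD, n = 5 each). The log2 difference was 0.91 ± 0.14 in saline dams (SE; limma adjusted p = 0.000123) and 0.96 ± 0.14 in LPS dams (adjusted p = 3.12e-05).

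Psmd8, the counterpart of the last subunit to join the lid in yeast, had counts of 2735, 3598, 2907, 3112 and 3521 in P10 saline and 3088, 2738, 3313, 3763 and 3472 in P10 LPS. At P11 its counts were 5659, 3200, 6043, 6396 and 6651 in saline and 5686, 6042, 5536, 7188 and 6225 in LPS. The 9 other P11 libraries all lay above P10, and only saline library 2 lay within the P10 range. The difference was 0.76 ± 0.16 in saline dams (adjusted p = 0.000797), 0.95 ± 0.11 without library 2, and 0.89 ± 0.16 in LPS dams (adjusted p = 0.000146). Psmd3, a scaffold subunit of the lid, had counts of 2748, 3777, 3731, 3585 and 3617 in P10 saline and 3274, 2933, 3432, 3612 and 2903 in P10 LPS. P11 counts were 5152, 3522, 5462, 6365 and 6022 in saline and 5120, 5455, 4843, 6716 and 5682 in LPS. Library 2 again lay within the P10 range, and all other P11 libraries lay above it. Its differences were 0.57 ± 0.14 (adjusted p = 0.00261) and 0.76 ± 0.14 (adjusted p = 0.000184). Psmd13 rose by 0.49 and 0.60, Psmd11, a lid scaffold whose level in human embryonic stem cells is tied to the amount of assembled proteasome, by 0.42 and 0.46, and Psmd7, the catalytically inactive partner of Psmd14, by 0.37 and 0.48 in saline and LPS dams. Median centring ended the calls of Psmd7 and Psmd11 in both kinds of dam and that of Psmd13 in saline dams (adjusted p = 0.0601).

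**Figure D3:**
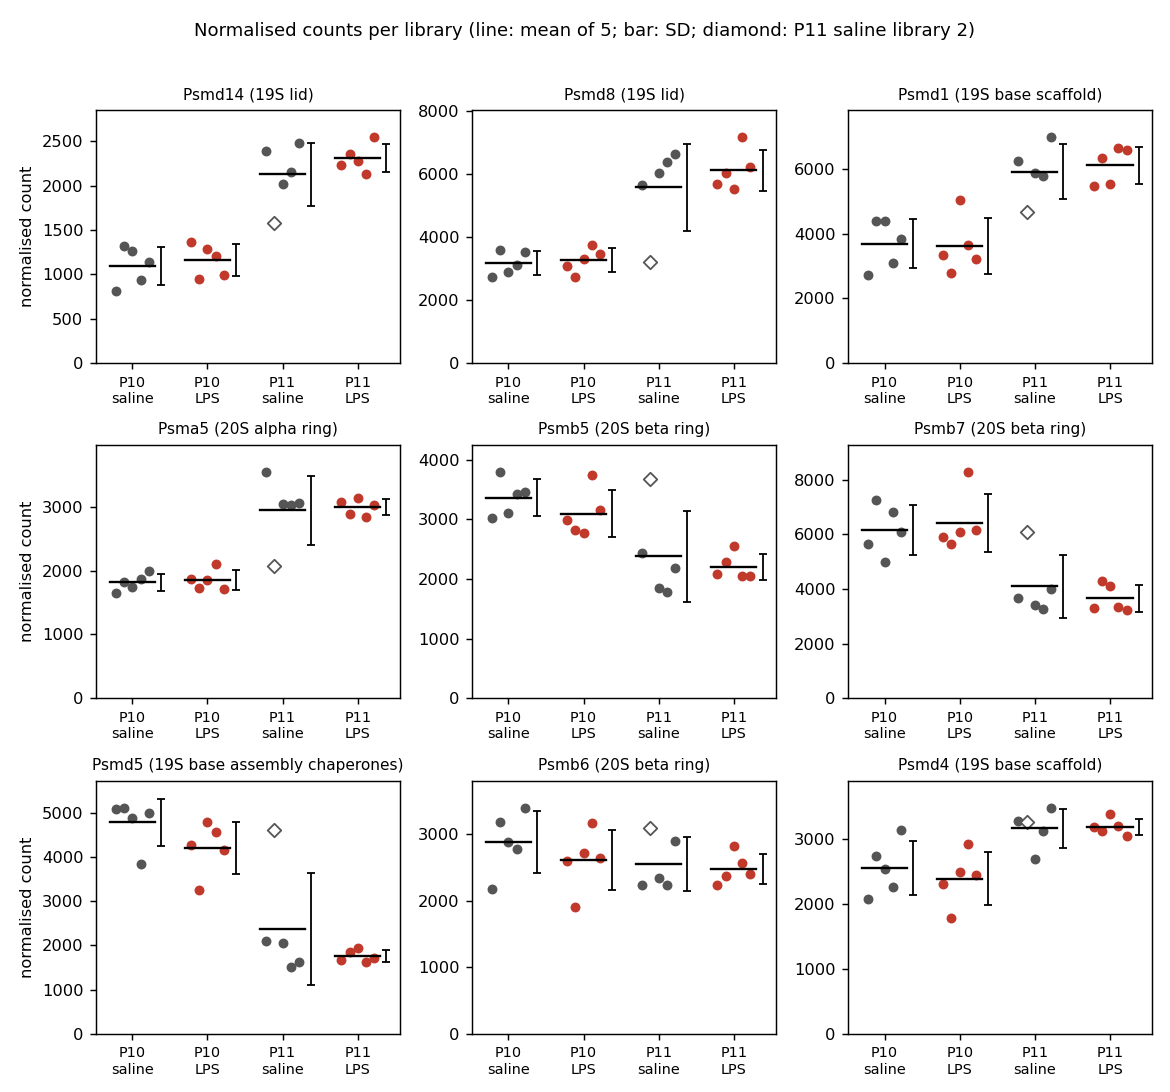
Normalised counts of 9 proteasome genes in every library by group; each point is 1 library, horizontal lines are group means, vertical bars are ± 1 SD, and the open diamond is P11 saline library 2. Psmd14, Psmd1 and Psma5 are higher at P11 than at P10 within each agent, Psmd8 is higher except in library 2, Psmb5, Psmb7 and Psmd5 are lower except in library 2, where they lie within the range of P10, and Psmb6 overlaps between days.

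In the base, the scaffold and receptor genes Psmd1 and Psmd4 rose in both kinds of dam and Psmd2 in LPS dams. Psmd1 forms the base scaffold on which the lid and ubiquitin receptors sit. Its counts were 2739, 4405, 4405, 3110 and 3840 in P10 saline and 3342, 2801, 5060, 3650 and 3222 in P10 LPS. In P11 milk they were 6260, 4670, 5880, 5803 and 6997 in saline and 5470, 6359, 5542, 6651 and 6596 in LPS. The days did not overlap within saline or within LPS dams. The differences were 0.68 ± 0.16 (adjusted p = 0.00168) and 0.77 ± 0.16 (adjusted p = 0.000448). Psmd4, a ubiquitin receptor, had counts of 2066, 2735, 2537, 2257 and 3131 in P10 saline and 2299, 1785, 2486, 2911 and 2438 in P10 LPS. At P11 they were 3266, 3254, 2681, 3119 and 3476 in saline and 3174, 3114, 3374, 3194 and 3036 in LPS. Psmd4 overlapped between days in saline dams and did not in LPS dams. Its differences were 0.31 ± 0.12 (adjusted p = 0.0398) and 0.42 ± 0.12 (adjusted p = 0.00681), and the saline call was lost in 7 of 25 alternatives, 6 of them leaving out 1 library. Psmd2, the other base scaffold, rose in LPS dams by 0.33 ± 0.10 (adjusted p = 0.00905), and its difference in saline dams was 0.22 ± 0.10 (adjusted p = 0.0723). Median centring ended the calls of Psmd2 and Psmd4 in both kinds of dam where they were made.

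Of the 6 ATPases that unfold substrates, Psmc1 and Psmc6 rose in both kinds of dam and the others were not called. That is 33.3% called in each, against 46.8% of all genes in saline dams and 52.9% in LPS dams. Psmc6 rose by 0.38 ± 0.10 in saline dams (adjusted p = 0.00558) and 0.37 ± 0.10 in LPS dams (adjusted p = 0.00497). Psmc1 rose by 0.25 ± 0.09 (adjusted p = 0.0233) and 0.26 ± 0.09 (adjusted p = 0.0172). Psmc2, Psmc3, Psmc4 and Psmc5 had differences of 0.23, -0.22, 0.05 and -0.06 in saline dams and 0.25, -0.12, 0.20 and 0.03 in LPS dams. The calls of Psmc1 and Psmc6 were lost when each library was centred on its median, and Psmc3 was then called lower in both kinds of dam. Psmc3 was also called lower in saline dams without library 2 (limma adjusted p = 0.0281).

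The 3 base assembly chaperones did not move together. Psmd5 holds ATPases of the base apart until they join and, in excess, impedes assembly of cap and core in mammalian cells. Its counts were 5086, 5125, 4894, 3841 and 4999 in P10 saline and 4285, 3253, 4795, 4577 and 4155 in P10 LPS. P11 counts were 2104, 4609, 2050, 1504 and 1628 in saline and 1672, 1857, 1947, 1620 and 1714 in LPS. All P11 libraries lay below all P10 libraries except saline library 2. The difference was -1.10 ± 0.21 in saline dams (adjusted p = 0.000411), -1.36 ± 0.12 without library 2 (adjusted p = 1.67e-08), and -1.21 ± 0.21 in LPS dams (adjusted p = 0.000104). Psmd9 had 0.21 and 0.29 (adjusted p = 0.184 and 0.0651) and Psmd10, also known as gankyrin, -0.13 and -0.14 (adjusted p = 0.525 and 0.447).

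In the core, 2 genes rose and 2 fell of 14 in saline dams (28.6% called, against 46.8% of all genes), and 3 rose and 3 fell in LPS dams (42.9%, against 52.9%), with medians of 0.02 and -0.05. This split depended on the scaling: with median centring it was 1 higher and 3 lower in saline and 1 and 7 in LPS dams, and with quantile normalisation 4 and 2, and 5 and 1. The split of all genes under these scalings is not given here. The α ring held the genes that rose. Psma5 had counts of 1648, 1827, 1744, 1868 and 1985 in P10 saline and 1869, 1733, 1850, 2100 and 1715 in P10 LPS. In P11 milk they were 3536, 2064, 3045, 3023 and 3050 in saline and 3076, 2884, 3141, 2843 and 3022 in LPS. Within each agent the days did not overlap, library 2 lying just above P10 saline. The differences were 0.65 ± 0.11 (adjusted p = 0.00021) and 0.67 ± 0.11 (adjusted p = 7.79e-05). Psma1 rose by 0.35 ± 0.11 (adjusted p = 0.0149) and 0.31 ± 0.11 (adjusted p = 0.0281), and lost both calls under median centring. In LPS dams Psma7 rose by 0.24 ± 0.09 (adjusted p = 0.0394) and Psma2 fell by 0.44 ± 0.17 (adjusted p = 0.0329), calls that were each lost in 7 of 25 alternatives, with Psma7 turning to -0.030 under median centring; in saline dams they had 0.18 and -0.36 (adjusted p = 0.136 and 0.0883). Psma3, Psma4 and Psma6 were not called, with -0.30, 0.16 and 0.06 in saline dams and -0.38, 0.10 and -0.05 in LPS dams.

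The β ring holds the 3 cutting subunits, Psmb6 (caspase-like), Psmb7 (trypsin-like) and Psmb5 (chymotrypsin-like). Psmb7 counts were 5635, 7266, 5006, 6828 and 6074 in P10 saline and 5913, 5640, 6072, 8272 and 6151 in P10 LPS. At P11 they were 3663, 6102, 3436, 3269 and 4012 in saline and 3315, 4304, 4104, 3338 and 3231 in LPS. All P11 libraries except saline library 2 lay below all P10 libraries. The differences were -0.60 ± 0.16 (adjusted p = 0.00398) and -0.79 ± 0.16 (adjusted p = 0.000374). Psmb5 counts were 3023, 3786, 3106, 3429 and 3458 in P10 saline and 2993, 2822, 2764, 3745 and 3150 in P10 LPS. P11 counts were 2430, 3668, 1841, 1781 and 2177 in saline and 2076, 2281, 2545, 2050 and 2056 in LPS. Library 2 was again the exception, lying at the level of P10. The differences were -0.53 ± 0.15 (adjusted p = 0.00709) and -0.47 ± 0.15 (adjusted p = 0.0121).

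Psmb6, the remaining cutting subunit, had counts of 2172, 3184, 2879, 2775 and 3400 in P10 saline and 2605, 1903, 2713, 3162 and 2645 in P10 LPS. In P11 milk they were 2236, 3094, 2336, 2235 and 2891 in saline and 2239, 2374, 2828, 2566 and 2399 in LPS. The days overlapped in both kinds of dam, and the differences were -0.16 ± 0.14 (adjusted p = 0.348) and -0.06 ± 0.14 (adjusted p = 0.759). The non-catalytic Psmb1, Psmb2, Psmb3 and Psmb4 were not called, with differences between -0.04 and 0.17 in saline dams and between -0.18 and 0.24 in LPS dams. In LPS dams Psmb4 (adjusted p = 0.0527) was called higher in 6 of 25 alternatives, Psmb2 and Psmb3 were called lower with median centring, and Psmb1 was called higher with quantile normalisation, which also called Psmb4 higher in saline dams.

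Cap and core were set against each other library by library, as the mean log2-scale value of each. Core minus cap was 0.17 to 0.29 in P10 saline, 0.17 to 0.35 in P10 LPS and -0.16 to 0.08 in P11 LPS. In P11 saline it was 0.03, -0.12, -0.14 and -0.03 in libraries 1, 3, 4 and 5 and 0.25 in library 2, which alone of the P11 libraries fell in the range of P10. The core mean itself overlapped between days, at 11.30 to 11.72 at P10 and 11.34 to 11.70 at P11. The lid mean was 11.02 to 11.45 at P10, 11.73 to 11.85 in 9 P11 libraries and 11.49 in library 2. Lid minus core was -0.37 to -0.16 in all 10 P10 libraries, 0.11 to 0.44 in 9 P11 libraries and -0.21 in library 2. Transcript lengths were not used, so only the shift of such differences between days is read, not their sign. Of the 20 cap genes 10 rose and 1 fell in saline dams (55% called, against 46.8% of all genes; median 0.24), and 11 rose and 1 fell in LPS dams (60%, against 52.9%; median 0.31). With median centring these were 4 higher and 2 lower, and 5 and 2, and with quantile normalisation 12 and 1, and 14 and 2, again without the split of all genes. A difference of means taken within a library is not affected by centring that library.

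**Figure D4:**
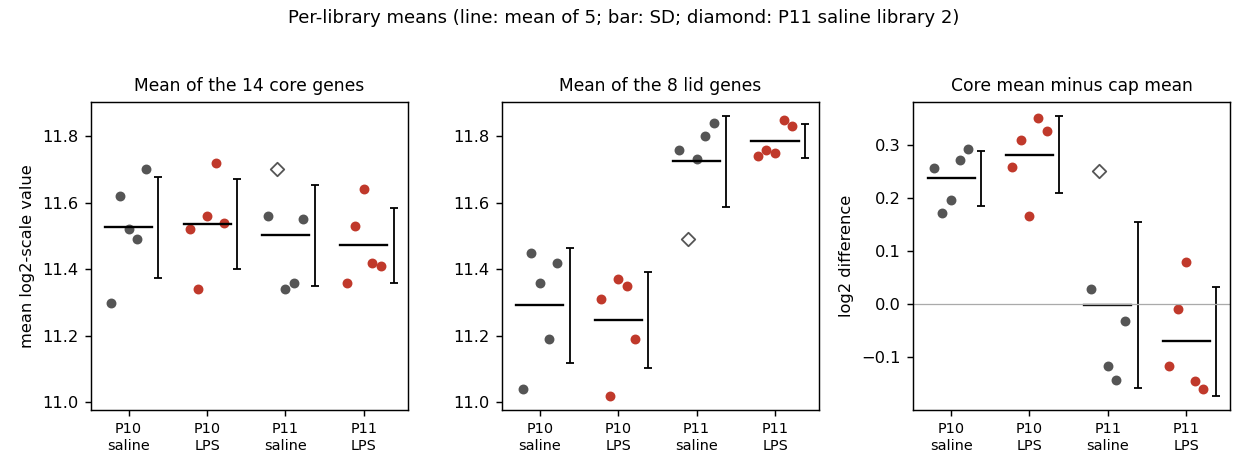
Mean log2-scale value of the 14 core genes, of the 8 lid genes, and core minus cap, in every library by group; points are libraries, lines are group means, bars are ± 1 SD, and the open diamond is P11 saline library 2. The core means overlap between days, the lid means are higher at P11 (11.73 to 11.85 outside library 2) than at P10 (11.02 to 11.45), and core minus cap is 0.17 or more at P10 and 0.08 or less at P11 outside library 2.

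The direction of a gene's change depends on what it is measured against. When each library was centred on its median, the median difference of all genes went from 0.05 to -0.17 in saline dams and from 0.10 to -0.17 in LPS dams. The split of called genes went from 12 higher and 3 lower to 5 and 5 in saline dams, and from 14 and 4 to 6 and 9 in LPS dams. Under that scaling 3 lid genes rose in saline dams (Psmd3, Psmd8 and Psmd14) and 4 in LPS dams (with Psmd13). Quantile normalisation gave 16 higher and 3 lower, and 19 and 3. The shares of all genes called under these 2 scalings are not given here, so the change in these counts is not shown to be particular to the proteasome genes. Psma5, Psmd1, Psmd3, Psmd8 and Psmd14 stayed higher and Psmb7 and Psmd5 lower at an adjusted p under 0.05 in both kinds of dam under all 25 alternatives. The share of all genes that did so is not given here. Of all normalised counts, the 34 genes together made up 850.5 to 2094 ppm at P10 and 3770 to 4723 ppm in 9 P11 libraries. In library 2 they made up 2025 ppm. Their summed counts overlapped between days, at 84450 to 110400 at P10, 102600 to 117100 in these 9 libraries and 110700 in library 2. The total over all genes was lower in each of the 9 than in any P10 library. The larger share at P11 thus does not show a rise of that size in the proteasome transcripts themselves.

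Genes outside the set that act with the proteasome were read from lists; beside each count of called genes stands the background of 46.8% of all genes in saline and 52.9% in LPS dams. Of the 5 inducible and tissue-specific core genes, 2 rose and 1 fell in saline dams and 1 rose and 2 fell in LPS dams. Psmb8, the inducible counterpart of Psmb5, had 8298 ± 1830 and 4143 ± 2140 counts in saline dams at P10 and P11 and 7327 ± 1850 and 2643 ± 935 in LPS dams (SD, n = 5 each), with 3253 ± 897 in P11 saline without library 2 (n = 4). It fell in both, with differences of -1.08 ± 0.30 (adjusted p = 0.00587) and -1.49 ± 0.30 (adjusted p = 0.000398). Psmb9, the counterpart of Psmb6, fell in LPS dams (-0.82, adjusted p = 0.0193) and had -0.48 in saline dams (adjusted p = 0.177), where it was called lower without library 2 (-0.66, adjusted p = 0.0449). Psmb10, the counterpart of Psmb7, had 0.02 and 0.28 (adjusted p = 0.954 and 0.124). Psmb11, a thymus-type subunit at group means of only 5.61 to 51.4 counts, rose by 0.48 and 0.94 (adjusted p = 0.0416 and 0.000439), and Psma8, a testis-type subunit, had 1.18 in saline and 0.22 in LPS dams (adjusted p = 0.024 and 0.674). The 5 genes gave no LPS call at either time.

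Of the 5 activators and inhibitors, 1 rose and 1 fell in each kind of dam. Psme2, a subunit of the ring that opens the core independently of the cap, rose by 0.56 and 0.40 (adjusted p = 0.00221 and 0.0159), while its partner Psme1 had 0.16 and 0.12 (adjusted p = 0.332 and 0.453). Psme4, a single-chain activator linked to histone degradation, fell, with -0.98 and -1.16 (adjusted p = 0.00109 and 0.00018). Of 3 core assembly chaperones tested (of 5 listed), Psmg1 fell in both kinds of dam (-0.48 and -0.41; adjusted p = 0.00557 and 0.0118), and Psmg2 rose in LPS dams (0.42, adjusted p = 0.0418). Of 7 other proteasome-bound proteins tested (of 10), 3 rose and 1 fell in each kind of dam. Akirin2, which brings proteasomes into the nucleus, rose by 0.85 and 0.79 (adjusted p = 8.49e-05 and 4.45e-05), Zfand5, a proteasome stimulator, by 0.74 and 0.66, and Usp14, a cap-bound deubiquitinase, by 0.37 and 0.48. Sem1, the smallest lid subunit, fell, with -0.43 and -0.66 (adjusted p = 0.0073 and 0.000214).

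Of 7 genes tested that control proteasome genes with NFE2L1 (of 8 listed; Nfe2l1 itself is not analysed here), 4 rose and 2 fell in saline dams and 3 rose and 2 fell in LPS dams. Maff, a small MAF protein, had 62.5 ± 23.3 counts in P10 saline and 1821 ± 997 in P11 saline (2243 ± 372 without library 2, n = 4), and 192.0 ± 153.0 and 1617 ± 391 in LPS dams, with differences of 3.42 ± 0.54 and 2.86 ± 0.54 (adjusted p = 0.000147 and 0.000267). Mafg, another small MAF protein, rose by 1.53 and 1.51 in saline and LPS dams, and Bach1, which competes for the same element, by 1.15 and 0.94. Ngly1, the enzyme that removes sugars from NFE2L1 during its activation, fell, with -1.78 and -1.97 (adjusted p = 0.000123 and 2.14e-05). Nfe2l2, the oxidative stress regulator of the same family, fell, with -0.86 and -1.06 (adjusted p = 0.0476 and 0.0151).

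Of 15 ubiquitin, activation and delivery genes, 3 rose and 4 fell in saline dams and 3 rose and 3 fell in LPS dams. Sqstm1, an adaptor that carries ubiquitinated cargo to autophagy, rose by 0.94 and 0.86 (adjusted p = 0.000406 and 0.000461), and Ufd1, which works with the segregase Vcp, by 0.52 and 0.51. Rps27a, which encodes ubiquitin fused to a ribosomal protein, fell, with -0.62 and -0.70 (adjusted p = 0.0056 and 0.00189). No gene of these lists was called for LPS at P10 or P11. Without library 2 the saline differences were -1.34 for Psmb8, -1.19 for Psme4, 0.97 for Akirin2, 0.94 for Zfand5, 4.11 for Maff, -2.16 for Ngly1 and -1.21 for Nfe2l2, each called.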

How the data were processed

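Per the file headers, the deposited table holds one log2-scale value per gene and library for 16748 genes and 20 libraries and is called rlog by the authors; its values have the form of a variance-stabilising transform with a lowest value of 5.461 (30.4% of entries), read here as a count of 0. Inverting that form gave the normalised counts, and low values then fell within 0.05 of whole multiples of a library's own step for 78.7 to 97.5% of values up to 6 steps (10% by chance), from which depth was estimated. The authors' 2 deposited comparison tables give base means, log2 fold changes, a test score and p-values for 1024 genes at P10 and 1085 at P11; they list none of the 34 genes, and their p-values were not used. DESeq2 and the genome build rn6 are named, without a version, per the submitters' processing notes; how reads were aligned and counted is not given in the sources used here.

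After removal of 2726 genes that never rose above the lowest value, limma 3.58.1 (R 4.3.3) with a mean-variance trend fitted the 4 groups to 14022 genes, two-sided, adjusted by Benjamini-Hochberg, threshold 0.05. The script was tested on simulated data. Values in every library are given for Psmb5, Psmb6, Psmb7, Psmd4 and Psmd14, for the 3 called genes of largest change in each direction between days and for the 2 of smallest p in each LPS test; Psma5 and Psmd3 were added after their values were seen. From the other lists, at most 4 called genes per comparison between days were named by size, plus Psmb8, Psmb9, Psmb10, Psme1, Psme2, Nfe2l1 and Pomp; Psmg3, Pomp, Paaf1, Ecpas, Ube3c and Nfe2l1 are not analysed here. Some genes that this rule would name are not reported here. The genes, lists and tests were chosen with earlier results of these data known. Alternatives left out a library, filtered at a mean of 6.5, used log2 of the count plus 1, omitted the trend, or rescaled libraries. Depth limits precision, and reads without molecular identifiers are not independent molecules.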

Additional observations from a re-analysis of the deposited data

Results flagged for a closer look

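Dixon's criterion was applied on the deposited log2 scale to the 5 libraries of each group, for the 34 genes and for the library means of core, cap and lid and their differences. Of the 156 groups tested, 8 held a library that stood far from the other 4, and chance alone gives about 1 such group in 20. The ratio of the gap to the range on that scale had a critical value of 0.71. In 3 of them, P11 saline library 2 was the one apart, the library that also stood apart across all genes. There Psmd8 had 3200 counts, against 5659 to 6651 in the other 4 (ratio 0.778), Psmd11 had 3079, against 4102 to 4178 (0.94), and Psmd6 had 2966, against 1901 to 1969 (0.921). In P10 saline, Psmd5 in library 4 had 3841, against 4894 to 5125 (0.84). Library 1 of that group had 2833 counts of Psma6, against 3393 to 3638 (0.721), and 2748 of Psmd3, against 3585 to 3777 (0.835). Psmb7 in P10 LPS library 4 had 8272, against 5640 to 6151 (0.774), and Psmb1 in P11 LPS library 3 had 4591, against 3567 to 3817 (0.732). On the scale of normalised counts 10 of the 136 gene groups passed, 6 of them through P11 saline library 2. No gene of the 34 had an LPS effect that differed between days past the threshold (limma).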

How the results depend on the processing

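No paired analysis was possible because the value columns carry no dam number. The total counts of called genes stayed within 1.5 times those reported, but the counts by direction did not: median centring took genes higher from 12 to 5 in saline and from 14 to 6 in LPS dams and genes lower from 4 to 9 in LPS dams, and leaving out P11 saline library 2 took genes lower in saline dams from 3 to 6. With 1 library left out the totals were 13 to 19 in saline dams and 16 to 19 in LPS dams between days, and 0 in both LPS comparisons and in the difference of LPS effects. Under quantile normalisation the counts between days were 19 and 22, and under median centring 10 and 15. No shares of all genes are given for these scalings. Quantile normalisation moved the cap median to 0.39 in saline and 0.55 in LPS dams, the core median in LPS dams to 0.15, and the cap median for the difference of LPS effects to 0.22. Median centring moved the core median to -0.20 and -0.32 and the cap median to 0.024 and 0.039 in saline and LPS dams, and it turned Psma7 (-0.030, adjusted p = 0.854) and Psmc1 (-0.008579, adjusted p = 0.95) in LPS dams; the cause was not tested. Cap median minus core median between days was 0.23 and 0.36 under median centring and 0.26 and 0.39 under quantile normalisation, and 0.20 to 0.26 in saline and 0.33 to 0.43 in LPS dams with 1 library left out. Leaving out a library gave core medians of -0.03 to 0.07 in saline and -0.12 to -0.02 in LPS dams between days and of -0.03 to 0.07 (P10) and -0.08 to 0.03 (P11) for LPS, and -0.11 to 0.02 for the difference of effects; cap medians were 0.20 to 0.29, 0.26 to 0.35, -0.13 to 0.02, 0.01 to 0.07 and 0.02 to 0.16. Leaving out P11 saline library 2 gained 4 calls and lost 0 in saline dams. In saline dams the call of Psmc1 was lost in 4 and that of Psmd7 in 2 of 25 alternatives, and in LPS dams those of Psma1, Psma2 and Psma7 in 5, 7 and 7; Psmb5 lost its call in LPS dams with quantile normalisation (adjusted p = 0.103). The least abundant gene, Psmd10, had at least 99.7 estimated reads in every library.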

Other observations

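The authors' deposited P11 table lists base means for 1085 genes. Those base means were proportional to the mean of the 9 other P11 libraries (coefficient of variation of the ratio 1.05%), and less so to the mean of all 10 (13.9%). In a regression of the base means on the 10 libraries, P11 saline library 2 had a weight of 6.47e-05, against 0.139 to 0.145 for the others. In the P10 table the ratio to the mean of all 10 libraries had a coefficient of variation of 0.292%.

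The median coefficient of variation of the 34 genes between libraries was 13.5% in P10 saline, 12.4% in P10 LPS, 14% in P11 saline (9.4% without library 2) and 8.26% in P11 LPS. Psma3 was the most variable gene in P10 saline (24.9%) and P11 LPS (17.3%), Psmd1 in P10 LPS (23.9%) and Psmd5 in P11 saline (53.5%). Over the 34 genes, P11 saline library 2 differed from single P10 libraries by a mean absolute log2 difference of 0.11 to 0.41 and from single other P11 libraries by 0.28 to 0.44, ranges that overlap.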
